A study of Mus musculus with 6 samples.

Results

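The 10 genes described here encode enzymes and a chaperone that make collagen fit for the matrix: the lysyl oxidases *Lox*, *Loxl1*, *Loxl2*, *Loxl3* and *Loxl4*, the lysyl hydroxylases *Plod1*, *Plod2* and *Plod3*, the prolyl 4-hydroxylase alpha subunit *P4ha1*, and the collagen chaperone *Serpinh1*. They were chosen by gene symbol, with earlier results of these data known, from the 16279 genes that at least 1 of 2 bulk RNA-seq count tables lists. One table held 3 libraries of mouse embryonic stem cells (mESCs), named S01, S02 and S03, and the other held 3 libraries of cardiac precursor cell cultures (CPCCs), named S04, S05 and S06. Of the 10 genes, 9 were listed in both tables and 1, *Lox*, only for CPCCs.

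All 6 libraries came from male F1 cells of the cross labelled C57BL/6 x CAST/EiJ, in which the mother was C57BL/6J and the father CAST/EiJ. The mESCs were clones grown from single cells of blastocyst-derived lines. They had been derived on feeder cells and were then kept without feeders, on gelatin, with serum, LIF and the MEK and GSK3 inhibitors PD0325901 and CHIR99021. CPCCs were made from these clones through hanging drops and embryoid bodies in medium with ascorbic acid, then dissociated and passaged in medium with EGF and Fgf2. Cells of the fourth passage were used, which are a mixed culture rather than 1 purified cell type. The study asked about allele-specific expression in the cardiac lineage, and the counts used here are not split by allele. The columns carry no replicate number, so a CPCC library could not be matched to its parent clone, and p-values measure the spread between these libraries.

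Collagen chains are modified in the endoplasmic reticulum before they fold. Prolyl 4-hydroxylases, built from an alpha subunit and the shared beta subunit P4hb, hydroxylate proline and so stabilise the triple helix, and lysyl hydroxylases (Plod) hydroxylate lysine, which carries sugars and takes part in crosslinks. Both enzyme families use iron, oxygen, 2-oxoglutarate and ascorbate. Serpinh1, also called Hsp47, binds the folded triple helix and accompanies it out of the endoplasmic reticulum. Outside the cell the copper enzymes of the lysyl oxidase family oxidise lysine and hydroxylysine, which starts the covalent crosslinks of collagen and elastin that give heart, vessel and connective tissue their tensile strength.

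The genes lie on 9 chromosomes of GRCm38 (mm10), and only *Loxl1* and *Plod2* share one, chromosome 9. RefSeq promoter windows of 300 bases on GRCm38.p6, reaching from 250 bases before the annotated start to 50 bases from the start on, were at hand for 5 of the 10 genes (*Serpinh1*, *P4ha1*, *Plod1*, *Plod3* and *Loxl4*). Those of *Serpinh1*, *P4ha1* and *Plod1* are shown because these genes had the largest, a middle and the smallest rise among the hydroxylases and the chaperone with a window. Each is written on the strand of its gene, and capitals mark ACGTG, the core of hypoxia response elements, GAANNTTC, a pair of heat shock element units, and TATAAA, the TATA box, or their reverse complements.
Serpinh1 (chr7:99353190-99353489, minus strand): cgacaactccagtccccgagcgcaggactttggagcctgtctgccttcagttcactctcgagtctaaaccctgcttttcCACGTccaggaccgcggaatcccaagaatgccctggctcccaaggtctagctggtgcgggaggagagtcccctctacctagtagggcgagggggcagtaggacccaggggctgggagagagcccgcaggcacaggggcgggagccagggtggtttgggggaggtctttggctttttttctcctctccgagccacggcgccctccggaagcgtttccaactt
P4ha1 (chr10:59323046-59323345, plus strand): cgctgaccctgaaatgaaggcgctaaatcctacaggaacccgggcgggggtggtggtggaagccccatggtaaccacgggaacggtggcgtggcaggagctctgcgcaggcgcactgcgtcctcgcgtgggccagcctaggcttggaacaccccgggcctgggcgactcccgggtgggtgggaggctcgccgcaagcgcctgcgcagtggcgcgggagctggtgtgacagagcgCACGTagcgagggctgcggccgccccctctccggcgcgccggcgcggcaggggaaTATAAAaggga
Plod1 (chr4:147936727-147937026, minus strand): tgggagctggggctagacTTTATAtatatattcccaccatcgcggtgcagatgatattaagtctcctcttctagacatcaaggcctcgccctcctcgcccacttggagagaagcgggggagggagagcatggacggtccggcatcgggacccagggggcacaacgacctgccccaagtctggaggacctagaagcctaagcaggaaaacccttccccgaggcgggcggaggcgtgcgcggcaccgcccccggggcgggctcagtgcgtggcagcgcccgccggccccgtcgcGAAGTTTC
ACGTG, searched on both strands, was found once each in the windows of *Serpinh1* (position -171, with the start base as 0), *P4ha1* (-16) and *Plod3* (-54), and was not found in those of *Plod1* and *Loxl4*. Of all 32851 mouse promoter windows of this length, 19.6% held it. GAANNTTC was found only in *Plod1* among these 5 windows (position 42), and in 7.86% of all windows. TATAAA was found in *P4ha1* (position 39) and, on the opposite strand, in *Plod1* (-232), against 13.6% of all windows. The GC box GGGCGG was found in 4 of the 5 windows, those of *Serpinh1*, *P4ha1*, *Plod1* and *Loxl4*, against 35.7% of all windows. GC boxes are left in lower case. A match is a match of letters and not evidence of binding.

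The mESC libraries summed to between 6442639 and 6907330 counts, the deeper CPCC libraries to between 8468819 and 11436062. Each listed gene had at least 10 counts over the 3 libraries of its table, so a gene missing from a table was read as lying under that sum and was set against a floor of 3 counts per library, which is 0.434 to 0.466 CPM (counts scaled to a library total of 1000000) in mESCs. Tests used edgeR's quasi-likelihood method with Benjamini-Hochberg adjustment over the 12471 genes tested, at an adjusted p under 0.05. Of these, 61.4% passed, 31.7% higher and 29.7% lower in CPCCs, and the median log2 fold change was 0.03. All 8 pluripotency markers in the list were lower in CPCCs (*Tfcp2l1*, *Zfp42* and *Esrrb* most, at log2 fold changes of -7.35, -5.55 and -5.37), while their summed level was still 107.5 CPM in S04, 217 CPM in S05 and 295 CPM in S06, against 5250 to 5595 CPM in mESCs.

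All 9 tested genes were higher in CPCCs, against 31.7% of all genes tested, and in all 9 every CPCC library lay above every mESC library, against 32.7% of the 13001 genes in both tables. Every one of the 9 rose at least 2-fold and 8 rose at least 4-fold, as did 25.5% and 14.3% of all genes tested. The median log2 fold change of the 9 was 3.24, and 3.68 when *Lox* was added at its lower bound. Summed over the 10 genes, the level was 208.8 to 245.3 CPM in mESCs and 3406 to 4911 CPM in CPCCs. The rises spanned from 2.19-fold for *Plod1* to 110-fold for *Loxl1* and *Loxl2*. An exact permutation test of a single gene over 3 against 3 libraries cannot give a two-sided p under 0.10, which each of the 9 reached. In bulk RNA a larger share of cells that use a gene and more of its RNA per cell cannot be told apart.

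**Figure D1:**
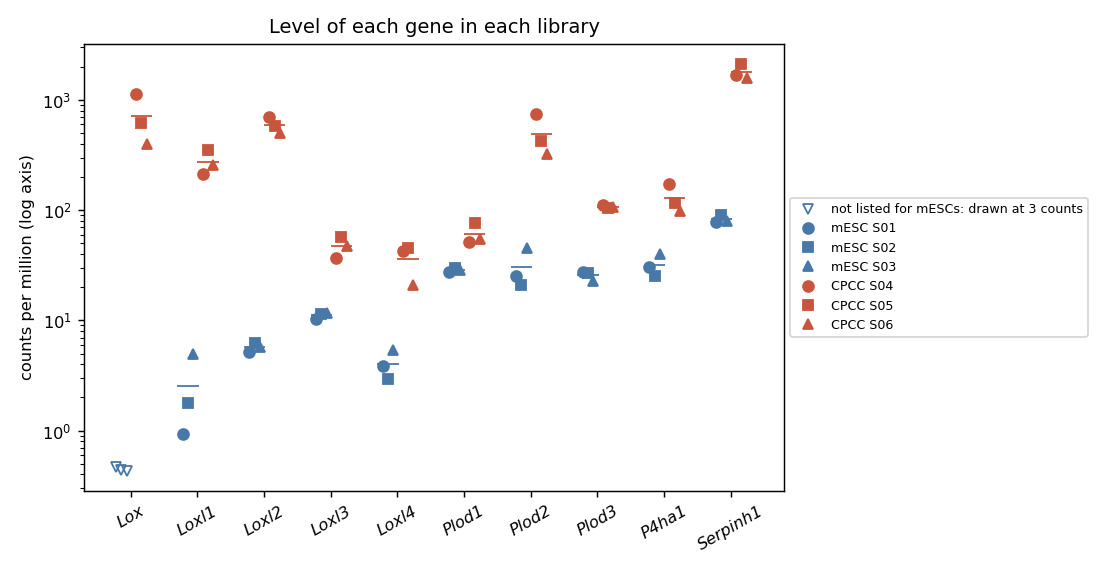
CPM (log axis) of the 10 genes in each library, with mESC libraries in blue, CPCC libraries in red and a line at each group mean; open triangles place *Lox* in mESCs, where it is not listed, at the floor of 3 counts. In the 9 genes listed for both cell types all 3 red points lie above all 3 blue points, with the narrowest gap for *Plod1* (29.9 CPM in mESC library S02, 51.4 CPM in CPCC library S04).

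*Lox*, on chromosome 18, encodes the founding lysyl oxidase, which crosslinks fibrillar collagen and elastin. It had 12993 counts in S04, 5265 in S05 and 3410 in S06, or 1136, 619 and 403 CPM, and was not listed for mESCs. Its CPCC mean of 719 CPM ± 377 (SD, n = 3) is at least 1609-fold above the floor of 3 counts per library, a bound that covers counting error only. S04 held 2.82 times the level of S06, the widest ratio between CPCC libraries among the 10 genes. With *Lox* set to 0 or to 3 counts in each mESC library, edgeR's adjusted p was 3.08e-05 and 9e-06. Being listed for CPCCs alone is common, as 15.5% of the genes of either table were.

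*Loxl2* (chromosome 14, 69609476 to 69695835), whose product crosslinks collagen IV of basement membranes as well as fibrillar collagen, stood at 5.12, 6.18 and 5.79 CPM in libraries S01 to S03. CPCC libraries S04 to S06 held 706, 582 and 505 CPM. Both groups were tight beside the gap between them. The log2 fold change was 6.78 (SE 0.26, adjusted p = 9.64e-07, edgeR), the 57th largest rise of the 12471 genes.

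*Loxl1* (chromosome 9, 58287723 to 58313213), best known for elastic fibre maintenance, stood at 0.931, 1.77 and 4.92 CPM in S01 to S03 and at 212, 353 and 260 CPM in S04 to S06. The mESC values rest on 6, 12 and 34 counts, and S03 alone holds 65.4% of them. Its log2 fold change was 6.79 (SE 0.49, adjusted p = 7.84e-06, edgeR). Without S03 it was 7.70, a rise 1.89 times as large on the linear scale.

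*Loxl4* (chromosome 19, 42592279 to 42612807) measured 3.88, 2.94 and 5.36 CPM across the mESC libraries, then 43.0, 45.4 and 21.0 CPM across the CPCC libraries. S06 was the low CPCC library, well under both others and still above every mESC library. It rose by 3.24 on the log2 scale (SE 0.41, adjusted p = 0.000159, edgeR).

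*Loxl3* (chromosome 6, 83034224 to 83052565), needed for palate and spine development in mice, was nearly level across mESC libraries at 10.3, 11.4 and 11.6 CPM and reached 36.8, 57.3 and 47.2 CPM in S04 to S06. It was the lysyl oxidase with the smallest rise, with a log2 fold change of 2.13 (SE 0.22, adjusted p = 5.97e-05, edgeR). Exons of *Htra2*, a mitochondrial protease gene on the opposite strand, cover 13.1% of its exon bases, and whether reads were counted by strand is not given in the sources used here. *Htra2* itself had a mean of 30.6 CPM in mESCs and 14.4 CPM in CPCCs (log2 fold change -1.02, adjusted p = 0.0161, edgeR), the opposite direction to *Loxl3*.

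The make-up of the lysyl oxidase family, taken as counts per exon length, therefore differed between the cultures. *Loxl3* held 41.5% to 53.1% of the family in the mESC libraries and 1.98% to 4.21% in CPCCs. *Loxl4* went from 15.0% to 21.7% in mESCs to 2.05% to 3.28% in CPCCs. *Lox* held 52.5% in S04, 35.0% in S05 and 30.8% in S06, and *Loxl2* held 28.8% to 34.1% in CPCCs against 15.7% to 21.8% in mESCs. The share of *Loxl1* overlapped between the groups, at 5.91% to 21.8% in mESCs and 14.2% to 28.9% in CPCCs. The ratio of *Loxl2* to *Loxl3* counts was 0.497 to 0.540 in mESCs and 10.2 to 19.2 in CPCCs, with no overlap.

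**Figure D2:**
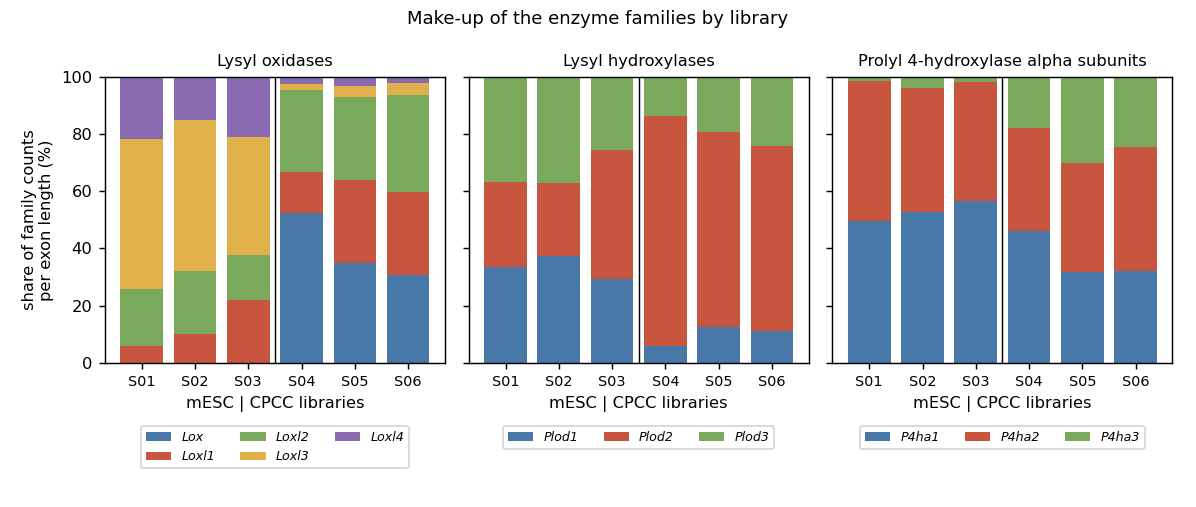
Share of each gene in the counts per exon length of its family (percent, stacked from 0 to 100) in each library, mESC libraries left of the line and CPCC libraries right of it, with *Lox* at 0 in mESCs where it is not listed. *Loxl3* is the largest lysyl oxidase block in the 3 mESC libraries and one of the smallest in CPCCs (1.98% to 4.21%), and *Plod2* fills 64.6% to 80.5% of the lysyl hydroxylase bar in CPCCs.

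*Plod2* (chromosome 9, 92542223 to 92608428) encodes the lysyl hydroxylase of collagen telopeptides, which sets the hydroxylysine-derived crosslinks typical of stiff and fibrotic matrix. Its level was 25.2, 20.8 and 45.6 CPM in S01 to S03, then 741, 422 and 323 CPM in S04 to S06. S03 was the high mESC library and S04 the high CPCC library, and the groups stayed far apart. It rose by 4.11 on the log2 scale (SE 0.44, adjusted p = 6.7e-05, edgeR), and leaving out 1 library at a time gave 3.62 to 4.54. An opposite-strand gene model that neither table lists covers 9.3% of its exon bases, and another covers 5.6% of those of *Loxl2*.

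*Plod3* (chromosome 5, 136987019 to 136996647), whose product also adds the sugars of hydroxylysine, went from 27.6, 26.9 and 22.9 CPM across mESC libraries to 112, 105 and 107 CPM across CPCC libraries. Its CPCC libraries were the closest of the 10 genes, with a coefficient of variation of 3.2%. The rise was 2.13 on the log2 scale (SE 0.18, adjusted p = 1.75e-05, edgeR). Exons of *Znhit1* on the opposite strand cover 16.1% of its exon bases, and that gene had means of 5.90 CPM in mESCs and 7.02 CPM in CPCCs (adjusted p = 0.531, edgeR).

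*Plod1* (chromosome 4, 147909753 to 147936777), which hydroxylates lysine in the helical part of collagen, lay at 27.8, 29.9 and 28.8 CPM in S01 to S03 and at 51.4, 75.9 and 54.3 CPM in S04 to S06. This was the smallest rise of the 9, with a log2 fold change of 1.13 (SE 0.20, adjusted p = 0.00128, edgeR). The mESC libraries held similar amounts of *Plod1*, *Plod2* and *Plod3* per exon length, at means of 7.99, 8.22 and 7.86 CPM per kilobase, and the library values of the 3 genes overlapped. In CPCCs the means were 16.8, 133 and 33.0 CPM per kilobase and no library value of 1 gene reached that of another. The ratio of *Plod2* to *Plod1* counts was 0.695 to 1.58 in mESCs and 5.56 to 14.4 in CPCCs.

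*P4ha1* (chromosome 10, 59323296 to 59373305), the main catalytic alpha subunit of prolyl 4-hydroxylase in most cells, measured 30.3, 25.2 and 40.0 CPM across mESC libraries and 174, 115 and 98.8 CPM across CPCC libraries. The same libraries as for *Plod2* were highest, S03 and S04. The log2 fold change was 2.11 (SE 0.30, adjusted p = 0.000338, edgeR). The alternative alpha subunit *P4ha2* rose alike from 11.8 to 17.1 CPM in mESCs to 75.6 to 78.3 CPM in CPCCs (log2 fold change 2.40, SE 0.21, adjusted p = 2.33e-05, edgeR), and the ratio of *P4ha1* to *P4ha2* counts overlapped between the groups. *P4ha3* rose from 0.466 to 1.03 CPM to 38.4 to 62.6 CPM, and its share of the alpha subunits per exon length went from 1.33% to 3.77% in mESCs to 17.8% to 30.1% in CPCCs. *P4hb*, the beta subunit, rose less, with a log2 fold change of 1.45 (SE 0.16, adjusted p = 8.36e-05, edgeR).

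*Serpinh1* (chromosome 7, 99345375 to 99353240) stood at 77.8, 91.0 and 80.3 CPM in S01 to S03 and at 1699, 2111 and 1586 CPM in S04 to S06. Both groups were narrow, with coefficients of variation of 8.4% and 15.3%. It rose by 4.50 on the log2 scale (SE 0.19, adjusted p = 1.28e-06, edgeR), a 22.6-fold rise. Per exon length it was the highest of the 10 genes in every library, at 34.0 CPM per kilobase ± 2.86 (SD, n = 3) in mESCs and 736 ± 113 (SD, n = 3) in CPCCs. Its ratio to *Plod1* counts was 2.79 to 3.04 in mESCs and 27.8 to 33.0 in CPCCs.

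After *Serpinh1*, the order per exon length in CPCCs was *Lox* at a mean of 151, *Plod2* at 133, *Loxl2* at 111 and *Loxl1* at 83.4 CPM per kilobase, and the library values of these 4 neighbours overlapped. *Plod3* at 33.0 and *P4ha1* at 31.4 overlapped too. *Plod1* at 16.8 lay just above *Loxl3* at 11.5, with no overlap, and *Loxl3* overlapped with *Loxl4* at 9.75 CPM per kilobase. In mESCs *Serpinh1* stood at 34.0 CPM per kilobase, *Plod2*, *Plod1*, *Plod3* and *P4ha1* lay between 7.73 and 8.22, and the 4 listed lysyl oxidases lay between 0.770 and 2.71.

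**Figure D3:**
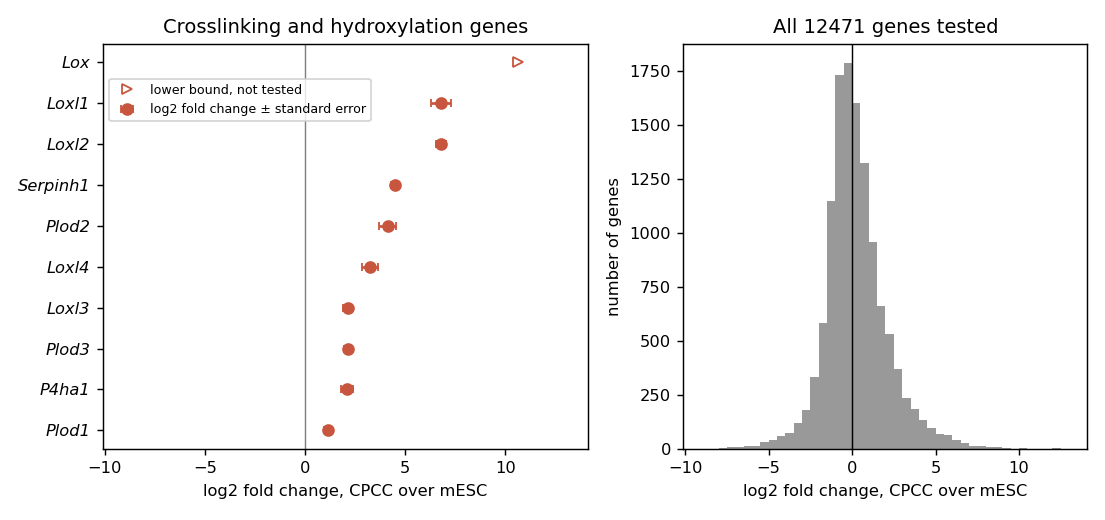
Left, log2 fold change of CPCCs over mESCs with its standard error for the 9 tested genes, and the lower bound of *Lox* as an open triangle; right, the number of genes at each log2 fold change among all 12471 tested. The 9 values run from 1.13 to 6.79, all right of 0, while the median of all genes is 0.03.

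The CPCC libraries did not rank the 10 genes alike. S04 was highest for *Lox*, *Loxl2*, *Plod2*, *Plod3* and *P4ha1*, and S05 for *Loxl1*, *Loxl3*, *Loxl4*, *Plod1* and *Serpinh1*. S06 was highest for none of the 10, whereas it was highest for 42.7% of the 13909 genes with a mean of at least 1 CPM in the CPCC table. Among the 30 other genes for collagen modification, folding and processing above that level, S06 was highest for 2. In S06 the mesenchymal markers also summed lowest, at 6107 CPM against 8620 in S05 and 9651 in S04, and the pluripotency markers highest, at 295 CPM. The part of either in the levels of the 10 genes was not tested.

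Set against the collagen I chains *Col1a1* and *Col1a2* of the same library, *Serpinh1* was steady, with 37.1, 33.0 and 34.4 counts per 100 collagen I counts in S04, S05 and S06. *Plod1* was steadier still, at 1.12, 1.19 and 1.18. *Lox* stood at 24.8 in S04 against 9.69 and 8.73 in S05 and S06, and *Plod2* at 16.2 against 6.60 and 7.01. *P4ha1* (3.79 against 1.8 and 2.14) and *Loxl2* (15.4 against 9.11 and 10.9) were highest in S04 on this scale too.

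**Figure D4:**
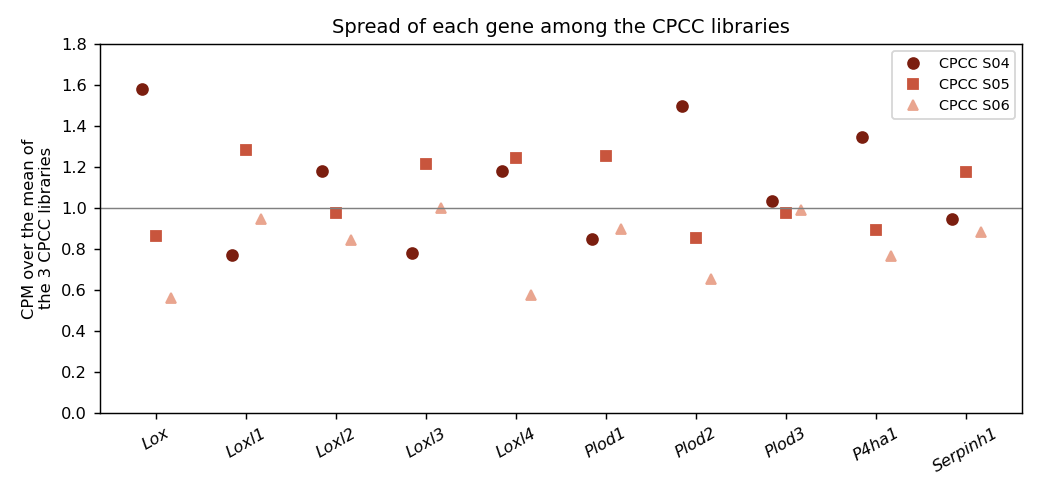
CPM of each gene in each CPCC library divided by the mean of the 3 CPCC libraries (line at 1). *Lox* and *Plod2* spread most, with S04 on top (1.58 and 1.5 times the mean), followed by *Loxl4* (0.576 to 1.25), and *Plod3* spread least (0.973 to 1.03).

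The rest of the collagen pathway was read in 4 lists. Among all genes tested, 31.7% were higher and 29.7% lower in CPCCs, the shares that each list stands beside. Among other hydroxylation and glycosylation enzymes, 6 of 9 tested genes rose, 2 fell and 1 did not pass, with a median log2 fold change of 1.45. *P4ha3* (6.04), *P3h4* (4.62) and *P3h3* (2.98), the last 2 a partner of lysyl hydroxylation and a prolyl 3-hydroxylase family member, rose most. *P3h2*, a prolyl 3-hydroxylase of basement membrane collagen, was listed only for CPCCs at 3.15 to 6.59 CPM. *Colgalt1*, which puts galactose on hydroxylysine, fell by 0.68 on the log2 scale (adjusted p = 0.00295, edgeR) and *Crtap*, a subunit of the prolyl 3-hydroxylase complex, fell by 0.58 (adjusted p = 0.0206, edgeR). The call for *Crtap* was kept in 2 of 6 fits that left out 1 library, with a largest adjusted p of 0.0859.

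Among other folding and export factors, 11 of 13 rose, none fell and 2 did not pass (median log2 fold change 2.61). *Fkbp10*, a prolyl isomerase that works with Plod2 on telopeptide lysine, rose from 0.466, 1.62 and 2.03 CPM to 490, 507 and 336 CPM (log2 fold change 8.38, SE 0.43, adjusted p = 1.88e-06, edgeR). *Creb3l1*, a transcription factor that drives collagen secretion genes, had a log2 fold change of 6.68, and the isomerase *Fkbp7* one of 4.46. The ratio of *Fkbp10* to *Plod2* counts went from 0.018 to 0.078 in mESCs to 0.661 to 1.2 in CPCCs.

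Of 8 genes for procollagen processing, 4 were tested. *Bmp1*, the protease that removes the C-propeptide of procollagen and also activates pro-lysyl oxidase, went from 1.71, 3.09 and 2.03 CPM in S01 to S03 to 632, 546 and 461 CPM in S04 to S06 (log2 fold change 7.97, SE 0.31, adjusted p = 9.64e-07, edgeR). Its enhancer *Pcolce* rose by 1.51 on the log2 scale and the second enhancer *Pcolce2* fell by 2.85 (adjusted p = 0.000746 and 1.85e-05, edgeR), while 1 gene did not pass. *Tll1*, *Adamts2* and *Adamts3* were listed only for CPCCs, at means at least 83.1-fold, 18.3-fold and 8.97-fold above the floor.

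The substrates and matrix partners of lysyl oxidases rose in 7 of 7 tested genes (median log2 fold change 6.64). *Col1a1* went from 0.145 to 0.931 CPM in mESCs to 2475 to 3429 CPM in CPCCs, *Col5a2* from 0 to 1.74 CPM to 557 to 843 CPM, and *Fbn1*, the microfibril protein fibrillin-1, from 1.32 to 2.75 CPM to 454 to 708 CPM. *Col1a2*, *Col3a1*, *Postn*, *Eln* and *Fmod* were listed only for CPCCs. The first 3 were at least 5110-fold, 3563-fold and 598-fold above the floor. *Eln*, the elastin gene, was uneven, with 4.28 CPM in S04, 54.0 in S05 and 6.97 in S06, and *Fmod* stayed under 2.12 CPM in all 3.

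Of 5 tested genes for copper and ascorbate supply, 2 rose, a share near the 31.7% of all genes tested, and 3 did not pass (median log2 fold change 0.39). *Atp7a*, the copper pump that loads lysyl oxidases in the secretory pathway, rose from 38.3 to 48.0 CPM to 206 to 375 CPM (log2 fold change 2.7, SE 0.29, adjusted p = 6.78e-05, edgeR), with S04 highest as for *Lox*. *Slc31a2*, a copper transporter-like protein, had a log2 fold change of 1.47 (adjusted p = 0.000274, edgeR), and *Atp7b*, the liver copper pump, was listed only for CPCCs at 0 to 2.01 CPM.

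*Plod2* and *P4ha1* are known targets of the hypoxia-inducible factor Hif1a. Of 14 tested genes in a list of hypoxia-induced genes, 3 rose (*Adm*, *Pfkfb3* and *Hif1a* itself, at log2 fold changes of 3.38, 1.28 and 1.17), 6 fell (*Ankrd37*, *Kdm3a* and *Mxi1* most, at -3.71, -2.26 and -1.49) and 5 did not pass, against 31.7% and 29.7% of all genes. The call for *Hif1a* was kept in 4 of 6 edgeR fits that left out 1 library, with a largest adjusted p of 0.066. The median log2 fold change of the list was -0.82, and its summed level was 3834 to 5274 CPM in mESCs and 1890 to 2467 CPM in CPCCs. Most of that sum is the glycolytic gene *Ldha*, at 2553 to 3485 CPM in mESCs and 934 to 1452 CPM in CPCCs, followed by *Pgk1* at 437 to 488 and 176 to 263 CPM. None of the 5 other 2-oxoglutarate dioxygenases of oxygen sensing passed the test in either direction by edgeR, against 61.4% of all genes tested. Of the 5, 1 had an unadjusted p under 0.05 by edgeR, against 8184 of all 12471 genes, and 1 was lower by DESeq2. *Hif1a* was highest in S03 among mESCs (116 CPM against 61.2 and 68.3) and in S04 among CPCCs (244 CPM against 133 and 144), the libraries highest for *Plod2* and *P4ha1*. S03 was highest for 36.3% of mESC genes and S04 for 29.3% of CPCC genes with a mean of at least 1 CPM, and the part of *Hif1a* in these levels was not tested.

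**Figure D5:**
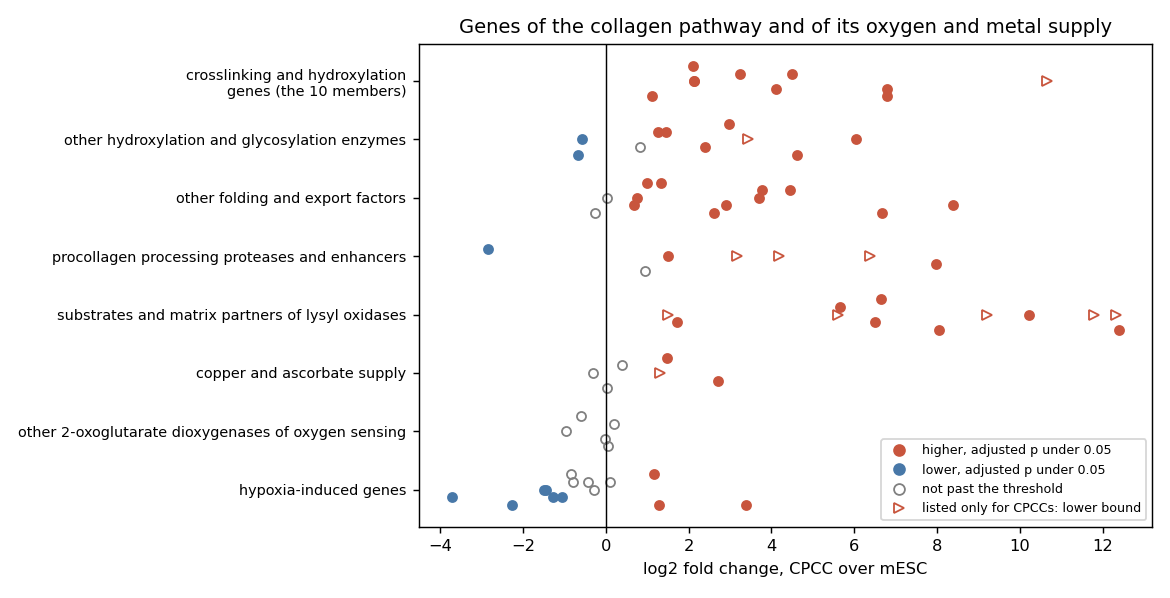
Log2 fold change of CPCCs over mESCs for every tested gene of the 10-gene set and of 7 related lists (filled red, higher; filled blue, lower; open grey, not past an adjusted p of 0.05; open triangles, lower bounds of genes listed only for CPCCs). Substrates lie farthest right (median 6.64), and the hypoxia-induced genes lie mostly left of 0 (median -0.82).

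Markers of cell types were read for what the CPCC cultures held, beside the 31.7% of all genes tested that were higher and the 29.7% that were lower. Of 10 mesenchymal and fibroblast markers, 3 of 4 tested rose (*Acta2*, *Pdgfrb* and *Thy1*, at log2 fold changes of 12.31, 5.06 and 1.91) and 6 were listed only for CPCCs (*Tagln*, *Prrx1*, *Lum*, *Dcn*, *Twist1* and *Twist2*), and their sum rose from 12.1 to 19.7 CPM to 6107 to 9651 CPM, nearly all of it *Acta2* and *Tagln*. Of 9 cardiac markers, 1 of 4 tested rose (*Tnnt2*, log2 fold change 5.01), a share near the 31.7% of all genes tested. *Tnnt2* was at 90.2 CPM in S04, 23.3 in S05 and 29.2 in S06, and its log2 fold change was 4.04 to 5.41 without 1 library. *Actc1*, *Myh6*, *Mef2c* and *Nkx2-5* were listed only for CPCCs and *Tbx5* only for mESCs. The cardiac sum was 4.42 to 6.67 CPM in mESCs against 384 CPM in S04, 127 in S05 and 150 in S06. The defining cardiac factor *Nkx2-5* was at 1.40, 0 and 0.945 CPM. Extraembryonic endoderm markers rose in 5 of 6 tested (*Foxa2*, *Gata6* and *Dab2* most, at log2 fold changes of 4.94, 3.17 and 3.11), against 31.7% of all genes tested, with *Afp* and *Ttr* in neither table. Their sum was 58.3 to 59.4 CPM in mESCs and 283 to 317 CPM in CPCCs, most of it *Dab2* and *Lama1*. *Gata6* was uneven, at 35.2 CPM in S04, 7.29 in S05 and 7.56 in S06. Without 1 library its log2 fold change was 1.88 to 4.45, and that of *Foxa2* 3.92 to 5.89. Neural markers rose in 4 of 4 tested (*Pou3f2*, *Nes* and *Sox1* most, at 4.86, 4.63 and 3.86), against 31.7% of all genes tested. *Pax6* was listed only for CPCCs. The neural sum was 40.8 to 46.4 CPM in mESCs and 497 to 580 CPM in CPCCs, most of it *Nes* and *Tubb3*. *Sox1* overlapped between the groups, at 3.62 CPM in mESC library S03 and 3.32 CPM in CPCC library S04. *Pou3f2* had 12 counts in S01 and 0 in S02 and S03. Its log2 fold change was 4.15 to 10.19 without 1 library. Of 6 endothelial markers, *Pecam1* fell by 4.35 on the log2 scale, the other tested gene did not pass, and *Cdh5*, *Kdr* and *Emcn* were listed only for CPCCs, at means of 4.65, 3.21 and 3.33 CPM. The endothelial sum was 91.4 to 101.4 CPM in mESCs and 15.2 to 25.8 CPM in CPCCs. How much of the level of any of the 10 genes came from which of these cells was not tested.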

How the data were processed

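Poly(A)-selected RNA was converted to cDNA with SMART-Seq v4, made into Nextera XT libraries and sequenced in pairs. The submitters' processing notes name STAR 2.7 and mm10, and the counter and its strand setting are not given in the sources used here. What the authors deposited are raw estimated counts per gene in 2 tables, 1 for mESCs and 1 for CPCCs. Fractional values make up 17.9% to 21.5% of a library. Gene ends may be 1 base past the last.

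Counts were rounded. CPM are counts scaled to 1000000 per library over its own table. The 13001 genes in both tables were filtered with filterByExpr, TMM-normalized and tested with edgeR 4.0.16 (R 4.3.3), CPCC against mESC, 3 libraries each, without covariates. On simulated counts for these 13001 genes, edgeR recovered 66 of 68 genes changed 4-fold and 22 of 63 changed 2-fold, with 6 false calls. Only 63, 68 and 69 genes were changed 2-fold, 4-fold and 8-fold, and every gene was given the same spread. In the data 61.4% of genes passed, so these recoveries and false calls do not carry over to them. Exon lengths and overlaps came from GENCODE M21, in which 12819 of 12838 matched symbols lay on the same chromosome as in the tables. Alternatives were DESeq2 1.42.0, other normalizations, filters and library sizes, missing genes at 0 or 3 counts, and leaving out each library.

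All 10 genes were described. From each other list the 3 largest rises and 3 largest falls past the threshold and genes in 1 table only were named. *P4ha2*, *P4hb*, *Htra2* and *Znhit1* were added for their role or position, *Afp* and *Ttr* as markers missing from both tables. *Ldha*, *Pgk1*, *Lama1* and *Tubb3* were named after their values were seen, for their weight in a sum. The genes and lists were chosen with earlier results of these data known. Floors cover counting error only.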

Additional observations from a re-analysis of the deposited data

How the results depend on the processing

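For the 9 tested genes, all 125 values under the alternatives (other tests, normalizations, filters, library sizes, treatments of missing genes and fits without 1 library) kept the direction and the call of the main test, *Loxl1* having 13 values instead of 14 because it falls under a minimum of 10 counts in every sample. The bound on *Lox* was 1610-fold with 9 counts over the group instead of 3 per library. The count of processing genes higher in CPCCs was 2 and became 5 with missing genes at 0 or at 3 counts. The count of substrates higher was 7, became 11 with missing genes at 0 or at 3 counts, and fell to 3 under a minimum of 10 counts per sample, where fewer genes enter. The count of hydroxylation and glycosylation genes lower was 2, and 1 to 2 when 1 library was left out (1 without S01, S02, S05 or S06). The count of copper and ascorbate genes lower was 0, and 0 to 1 without 1 library (1 without S04). The count of other oxygen-sensing dioxygenases lower was 0, with 1 under DESeq2 and with missing genes at 3 counts, and 0 to 1 without 1 library (1 without S04 or S06). Counts that moved by a smaller factor are not itemised. They include hypoxia-induced genes lower, copper genes higher and mesenchymal markers higher under DESeq2. They also include folding factors higher and hypoxia-induced genes higher without 1 library. For all of these counts but those tied to the genes entering, the cause was not tested.

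The log2 fold change of 5 genes that did not pass the test changed sign under some alternatives: *Tmem38b* (-0.032 with missing genes at 3 counts, -0.33 to 0.39 without 1 library), *Atox1* (-0.033 with missing genes at 3 counts, -0.087 to 0.26 without 1 library), *Egln1* (-0.009 with missing genes at 3 counts, -0.12 to 0.34 without 1 library), *Egln2* (0.001 without a filter, 0.064 under the 10-count minimum, 0.004 with missing genes at 0 counts, -0.16 to 0.19 without 1 library) and *Vegfa* (-0.030 to 0.42 without 1 library). Of 1169 values for the 85 other genes of the lists, 1122 kept direction and call.
No paired analysis was possible because the columns carry no replicate numbers. Each group has 3 libraries, and under 40 counts stand behind every mESC value of *Loxl1* and *Loxl4*. Rises from so few counts are less exact than those of *Serpinh1*, which had 501 or more counts in every library.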

Other observations

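Within the mESC libraries, S03 was highest for 13 of the 14 hypoxia-induced genes with a mean of at least 1 CPM, whereas it was highest for 36.3% of the 12652 genes of the mESC table at that level. *Ankrd37*, for example, had 31.7, 18.1 and 56.8 CPM in S01, S02 and S03. Of the 9 genes of the collagen set listed for mESCs, S03 was highest for 5 (*Loxl1*, *Loxl3*, *Loxl4*, *Plod2* and *P4ha1*). The other 2-oxoglutarate dioxygenases of oxygen sensing were highest in S03 for 2 of 5. In CPCCs S06 was highest for 9 of 15 hypoxia-induced genes and for none of the 10 collagen modification genes. It was highest for 42.7% of the 13909 genes of the CPCC table at that level. Culture conditions of single libraries are not given in the labels, and the part of oxygen supply was not tested.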
